A study of Mus musculus with 3 samples.

Results

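Chromatin immunoprecipitation recovers some DNA that the antibody did not select, and in CTCF ChIP-BisSeq this DNA is bisulfite sequenced with the rest. Outside the peaks of CTCF, a zinc finger protein that binds DNA at insulators and other regulatory regions, both wild type libraries therefore hold thinly covered CpGs spread over the genome. These CpGs were selected by coverage. The autosomes were divided into fixed 1 kb bins, and a bin was kept when none of its listed CpGs had more than 5 observations in either replicate, an observation being 1 read base at 1 CpG. Of 1851439 bins with a listed CpG, 1544820 (83.4%) were kept, and 736235 of those were listed in replicate 1, 1447008 in replicate 2 and 638423 in each. The kept bins hold 13123373 of the 20364700 autosomal CpGs of the mm9 genome. Replicate 1 gave 3121064 observations there, at 9.84% of these CpGs, and replicate 2 gave 8387688, at 33.9%.

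Both replicates were made from wild type mouse embryonic stem (ES) cells, derived from blastocysts of mixed 129-C57Bl/6 background, with an anti-CTCF antibody, and each library pooled DNA of 5 ChIP experiments. The REST knockout library is a single WG-BisSeq library, made without immunoprecipitation from ES cells of Black Agouti 129 background that lack the repressor REST. All cells were grown on feeder cells or gelatine, and a contribution of feeder cell DNA was not tested. Genotype, strain and assay differ together between the wild type libraries and the REST knockout library and cannot be told apart. Over all chromosomes the files hold 13411280 and 25262179 observations for the wild type replicates and 273375318 for the REST knockout library. The labels do not say whether the replicates came from separate cultures, so the spread between them may be technical. With 2 replicates no permutation p under 0.5 is possible, and differences are given per replicate with the SD.

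In mammalian genomes the cytosine of most CpGs carries a methyl group, which is set by the DNA methyltransferases. CpG islands, stretches with many CpGs that hold the start sites of most housekeeping and many developmental genes, are the main exception. Promoters of genes used only in germ cells are a well-known class that is methylated in other cells although some of them are rich in CpGs.

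Stretches of 250 bases that end just before a transcription start site (TSS) are shown for 1 housekeeping, 1 germline and 1 tissue-restricted gene, because they show how the number of CpGs differs between promoters of high and low methylation. For each list the gene with the most background observations within 500 bp of its start was taken. Sequences are from mm9 and run 5′ to 3′ on the strand of the gene, with CpGs in capitals.
Polr2a: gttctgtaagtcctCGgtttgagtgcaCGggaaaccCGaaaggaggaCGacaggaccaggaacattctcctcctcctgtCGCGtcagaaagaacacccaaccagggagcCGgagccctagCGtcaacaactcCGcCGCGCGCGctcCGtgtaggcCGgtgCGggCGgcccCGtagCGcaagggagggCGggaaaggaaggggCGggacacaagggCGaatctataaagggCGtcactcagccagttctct
Mael: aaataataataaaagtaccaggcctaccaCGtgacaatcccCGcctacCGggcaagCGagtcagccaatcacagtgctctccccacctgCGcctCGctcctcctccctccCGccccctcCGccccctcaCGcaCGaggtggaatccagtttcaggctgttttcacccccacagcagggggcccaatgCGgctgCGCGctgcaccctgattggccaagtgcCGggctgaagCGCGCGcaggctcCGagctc
Cd4: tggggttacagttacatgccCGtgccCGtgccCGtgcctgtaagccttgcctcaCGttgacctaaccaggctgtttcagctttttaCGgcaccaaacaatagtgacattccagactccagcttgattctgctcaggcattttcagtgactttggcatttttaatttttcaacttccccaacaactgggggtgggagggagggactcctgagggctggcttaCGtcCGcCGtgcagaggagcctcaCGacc

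Polr2a encodes the largest subunit of RNA polymerase II, and its stretch (chr11:69572140-69572389, minus strand) holds 23 CpGs. None of them lay in a background bin. The background observations of Polr2a lie elsewhere within 500 bp of the start. There replicate 1 had 0 methylated of 34 observations, which would allow up to 8.82% if observations were independent. Replicate 2 had 1 of 50. Mael, a gene of the piRNA pathway that silences transposons in germ cells, has 18 CpGs in its stretch (chr1:168168876-168169125, minus strand), all in background bins. Within 500 bp of its start, replicate 1 had 11 methylated of 22 observations and replicate 2 had 40 of 85. Cd4, the coreceptor of helper T cells, has 9 CpGs in its stretch (chr6:124838240-124838489, minus strand), all in background bins. Within 500 bp of its start, 4 of 4 and 13 of 17 observations were methylated. In the REST knockout library the same CpGs were methylated to 8.12% at Polr2a, 36.7% at Mael and 77.1% at Cd4.

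The background methylation level over all bins was 82.9% in replicate 1 and 80.6% in replicate 2 (81.8% ± 1.62, SD, n = 2). The bins left out, which the rule chose by their coverage, stood at 33.1% and 36.6%, and the 38525 bins with a CpG of 10 or more observations in both replicates at 21.9% and 28.5%. The limit does not divide the background sharply from the rest. Bins whose highest coverage was 5, just inside the limit, stood at 78.9% and 75.1%, and bins at 6, just outside, at 71.1% and 66.8%. Along the same steps the mean number of CpGs per bin, over CpGs, went from 16.7 to 21.1.

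The rule kept fewer bins the more CpGs they held. It kept 93.0% of listed bins with 1 to 4 CpGs, 87.4% with 5 to 9, 77.2% with 10 to 19, 62.7% with 20 to 39 and 21.7% with 40 or more. Among the bins that stayed, the share of CpGs listed also differed, with no steady order by density. It was 15.9% in replicate 1 and 40.2% in replicate 2 in bins of 40 or more CpGs. Bins of 5 to 9 had 9.37% and 32.5%, and bins of 1 to 4 had 11.7% and 39.9%. Within the densest class the share also went with location. It was 24.9% and 55.0% within 500 bp of a protein-coding TSS. For CpGs outside genes and over 10 kb from any TSS it was 3.77% and 14.6%. The background is therefore not an even sample of the genome, and whether bins just under the limit hold CTCF-bound molecules was not tested.

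Methylation was much lower in the densest bins. Bins with 1 to 4 CpGs were methylated to 86.4% in replicate 1 and 82.7% in replicate 2. Bins with 5 to 9 CpGs, the class with the most bins, stood at 87.1% and 84.1%, and bins with 10 to 19 at 85.8% and 83.0%. In bins with 20 to 39 CpGs the level was 73.1% and 72.2%, and in bins with 40 or more it was 12.7% and 17.0%. The difference of the densest minus the poorest class was -73.7 percentage points in replicate 1 and -65.7 in replicate 2 (-69.7 ± 5.66, SD, n = 2), which is larger than the spread between replicates. Counted in a window of 250 bp to each side of a CpG, the same order was seen. Lone CpGs stood at 85.8% and 81.9%, and CpGs in a window with 20 or more at 20.7% and 27.7%.

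**Figure D1:**
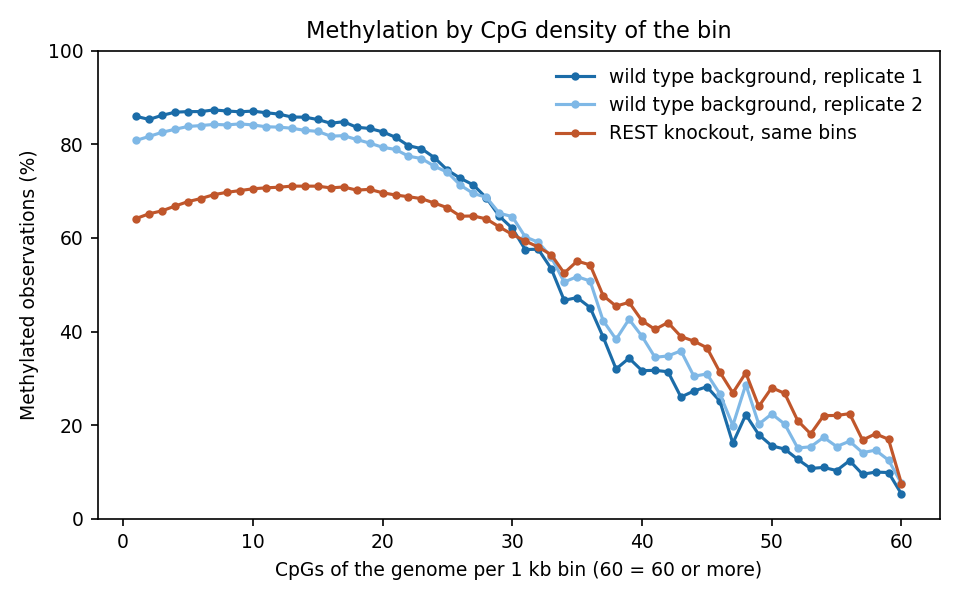
Percent of methylated observations (y axis) against the number of CpGs of the genome in the 1 kb bin (x axis, with bins of 60 or more in the last point), for the 2 wild type replicates and for the REST knockout library in the same bins. Replicate 1 lies above replicate 2 up to 27 CpGs per bin and below it in all denser classes, and the REST knockout library lies above both from 33 to 59 CpGs per bin.

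The order of the replicates turned with density. Replicate 1 was higher in each of the 27 classes of 1 to 27 CpGs per bin, and replicate 2 in each of the other 33. Over all background CpGs the difference of replicate 2 minus replicate 1 was -2.30 percentage points, and replicate 1 was higher on 19 of 19 autosomes, with levels of 80.4% to 85.1% against 78.5% to 82.6%. With CpGs of 1 observation only, the difference was -0.63 percentage points, with a limit of 10 on the coverage it was -0.28, and with CpGs listed in both replicates it was -4.96.

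In the densest bins the level went with how well the bin was covered. Among bins of 40 or more CpGs, those with a highest coverage of 1 were methylated to 57.2% and 60.2%, those of 3 to 29.4% and 32.3%, and those of 5 to 11.1% and 13.5%. Just outside the limit, at 6, the level was 7.29% and 9.75%. The mean number of CpGs per bin, over CpGs, went along with these steps, from 50.2 at a highest coverage of 1 to 54.3 at 3, 67.2 at 5 and 72.9 at 6, and the parts of coverage and density in the level were not separated. Among bins of 5 to 9 CpGs the level changed little over the same steps, from 86.2% and 84.1% at a highest coverage of 1 to 86.9% and 83.3% at 5.

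Close to gene starts the background, summed over all densities, was mostly unmethylated. Within 500 bp of the TSS of a protein-coding gene, the methylation level was 28.9% over 113574 observations of replicate 1 and 32.8% over 244658 of replicate 2. CpGs outside genes and over 10 kb from any TSS stood at 86.2% and 83.5%. The difference was -57.3 and -50.7 percentage points (-54.0 ± 4.65, SD, n = 2), larger than the spread between replicates. Its size depended on the limit, at -25.3 with a limit of 3 and -70.6 with a limit of 10. Bins of 40 or more CpGs hold 34.7% of the background CpGs near a TSS but 0.952% of the intergenic ones.

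The difference was also present within each density class, but gene starts in bins of fewer than 20 CpGs were mostly methylated. Within 500 bp of a TSS the level was 82.2% and 78.2% in bins of 1 to 4 CpGs, 78.2% and 77.0% in bins of 5 to 9. It was 65.5% and 64.0% in bins of 10 to 19 and 29.5% and 32.3% in bins of 20 to 39. In bins of 1 to 4 CpGs the difference of TSS minus intergenic CpGs was -4.27 ± 0.218 percentage points (SD, n = 2), in bins of 5 to 9 it was -8.35 ± 1.03, in bins of 10 to 19 it was -20.9 ± 0.636 and in bins of 20 to 39 it was -47.4 ± 3.63. In bins of 40 or more CpGs, TSS CpGs were methylated to 5.21% and 6.77% and intergenic CpGs to 32.3% and 43.1%, a difference of -31.7 ± 6.50. The REST knockout library showed the same sign in all 5 classes, from -3.04 in the poorest to -46.9 in the densest class.

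Around the TSS the lowest level was close to the start itself. From 200 bp before the TSS to the TSS, 24.7% and 28.9% of observations were methylated, and in the 200 bp after it 25.3% and 29.7%. The level was 62.3% and 60.05% between 1000 and 500 bp before the TSS and 71.03% and 67.5% between 1000 and 2000 bp after it. It reached 85.0% and 81.6% between 20000 and 10000 bp before the TSS. In bins of 10 to 19 CpGs the profile had 2 dips, with 62.5% and 60.8% between 500 and 200 bp before the TSS, 71.6% and 70.0% in the 200 bp after the TSS, and 64.3% and 61.6% between 500 and 1000 bp after it. The value just after the TSS was higher than both its flanks in each replicate and in the REST knockout library, where the levels were 56.1%, 60.4% and 56.1%.

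**Figure D2:**
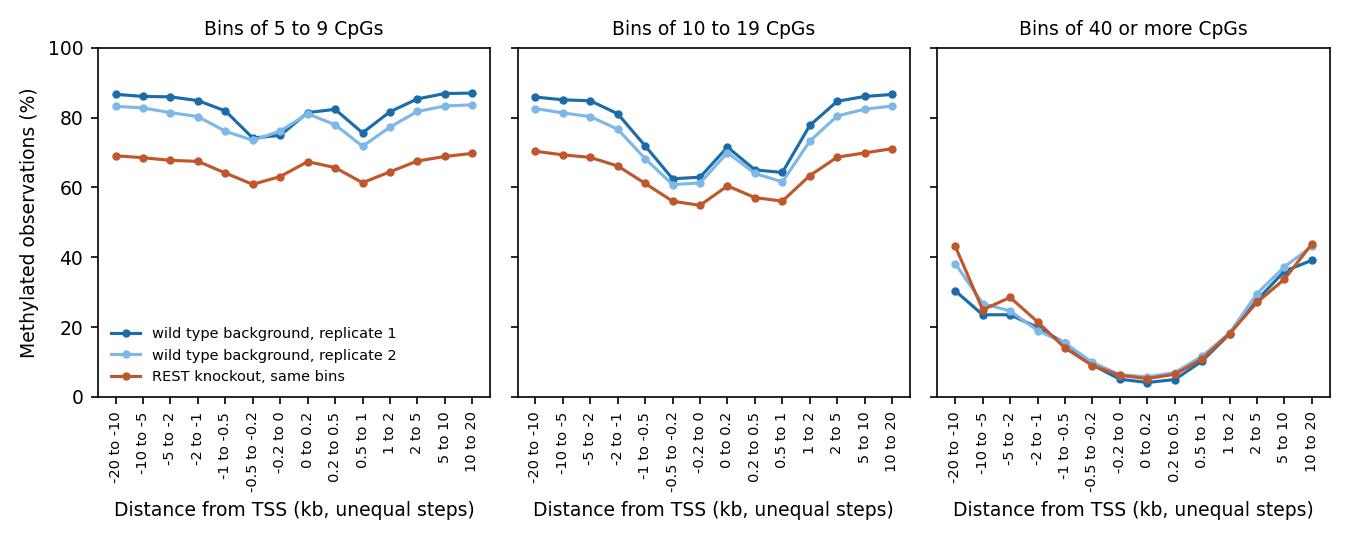
Percent of methylated observations (y axis) by distance from the nearest protein-coding TSS in kb (x axis, steps of unequal width, negative before the TSS), in bins of 5 to 9, 10 to 19 and 40 or more CpGs, for both wild type replicates and the REST knockout library. In bins of 10 to 19 CpGs both replicates show a local maximum of 71.6% and 70.0% just after the TSS, and in bins of 40 or more CpGs all 3 libraries fall to between 4.14% and 5.77% there.

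Over all densities, gene bodies did not differ from intergenic DNA beyond the spread between replicates. Over 2 kb from any protein-coding TSS, CpGs in protein-coding genes stood at 86.5% and 83.3%. The difference from intergenic CpGs was 0.276 and -0.156 percentage points (0.0598 ± 0.306, SD, n = 2). With a limit of 3 on the coverage the difference was 0.425 ± 0.0665. Within bins of 1 to 4 CpGs it was 0.485 ± 0.135, above 0 in both replicates. Within bins of 20 to 39 CpGs, gene bodies were higher by 3.53 and 2.20 percentage points (2.87 ± 0.938, SD, n = 2), while the REST knockout library gave -0.23. In bins of 40 or more CpGs the replicates took opposite signs, 6.81 and -0.85.

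Coding exons were lower than introns, at 83.5% and 81.7% against 86.9% and 83.6% (difference -2.66 ± 0.992 percentage points, SD, n = 2). With a limit of 3 on the coverage the replicates took opposite signs, -1.68 and 0.496. Exons are richer in CpGs, and 33.5% of their background CpGs lie in bins of 20 or more against 10.4% of those of introns. Within bins of 10 to 19 CpGs the difference was -0.69 in replicate 1 and 1.54 in replicate 2, and within bins of 5 to 9 it was -0.99 and 1.20, so that the replicates took opposite signs. In bins of 20 to 39 both were below 0, at -1.59 and -1.03. In bins of 40 or more CpGs both were above 0, at 11.8 and 3.08. UTRs stood at 85.6% and 81.8%. Genes that code for no protein stood at 79.7% and 78.0%, but these were taken at any distance from a TSS. In bins of 5 to 9 CpGs these genes stood at 86.8% and 83.6%, and UTRs at 87.6% and 83.8%.

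The bases next to the CpG made a small difference. In bins with fewer than 20 CpGs, CpGs in GCGC were the highest of the 10 contexts, counted on both strands together, with 87.6% and 87.0%. CpGs in ACGT and TCGA were the lowest, with 85.1% and 80.8% for ACGT and 85.0% and 80.9% for TCGA. The range over contexts was larger in replicate 2, and the REST knockout library also had GCGC highest (73.0%) and ACGT lowest (67.3%).

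Background bins next to an enriched bin, defined as one with a CpG of 10 or more observations in both replicates, were less methylated than those far away. At 1 kb the level was 75.9% and 72.0%, at 6 to 10 kb it was 81.4% and 79.1%, and at over 50 kb it was 85.8% and 83.4%. In bins of 5 to 9 CpGs the same order held over a narrower range, from 84.3% and 79.8% at 1 kb to 87.7% and 84.9% at over 50 kb. The REST knockout library stood at 66.8% and 68.9% at these ends in the same bins.

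Several observations of 1 CpG in 1 library had the same state more often than independent observations at 1 common level would, most of all in replicate 1. Among CpGs with 2 observations, 0.725% were read in both states in replicate 1 and 6.59% in replicate 2, where independent observations at the common level would give 28.3% and 30.8%. In the REST knockout library the share was 20.4% against 38.6%. Among CpGs with 5 observations the shares were 3.66% in replicate 1, 25.0% in replicate 2 and 63.5% in the REST knockout library. Levels that differ between CpGs also lower these shares, which the common level leaves out. Single observations of a CpG in the 2 replicates, at another set of CpGs, had the same state at 76.5%, less often than within a replicate. Observations of a CpG in a wild type replicate are therefore not independent molecules for counting error. The deposited counts cannot tell PCR copies of a molecule from separate molecules. All counting intervals given here cover counting error only and are too narrow, and the upper limits given for zero counts are too low.

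**Figure D3:**
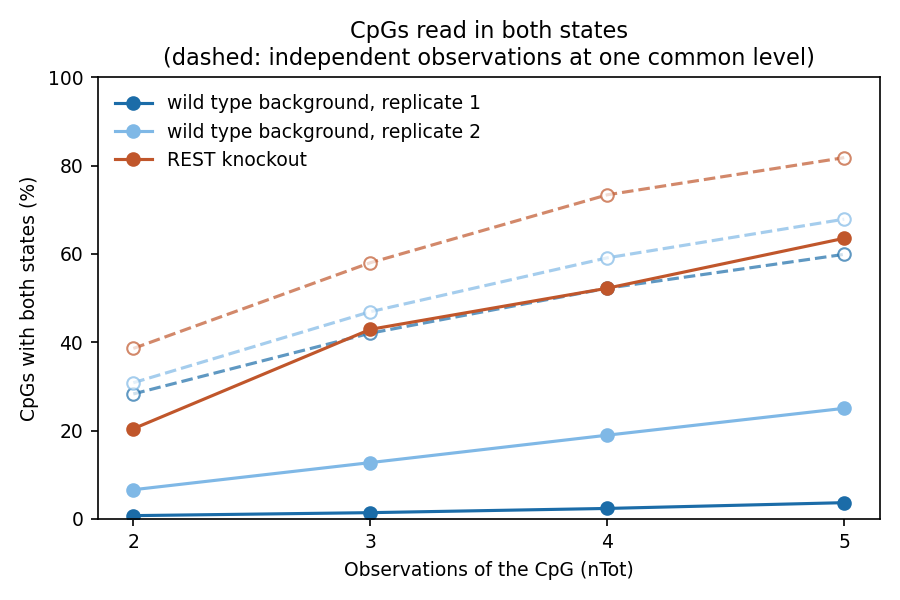
Percent of background CpGs read in both states (y axis) by the number of observations of the CpG (x axis), for each wild type replicate and the REST knockout library, with dashed lines for the share that independent observations at 1 common level would give. Replicate 1 stays between 0.725% and 3.66% and replicate 2 between 6.59% and 25.0%, both far below their dashed lines.

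Observations from different replicates come from different libraries and cannot be copies of 1 molecule made within a library. At 71480 CpGs with exactly 1 observation in each replicate, the states were the same at 76.5% (95% Clopper-Pearson interval 76.2% to 76.8%), against 65.5% from the 2 levels alone. The association, the phi coefficient of the 2 states over CpGs, was 0.32. It differed between density classes, with 0.09 in bins of 1 to 4 CpGs and in bins of 5 to 9, 0.17 in bins of 10 to 19, 0.45 in bins of 20 to 39 and 0.36 in bins of 40 or more. In CpG-poor DNA the state seen in one library thus told little about the state in the other beyond the common high level. These coefficients are descriptions over CpGs that share libraries and neighbourhood.

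The reach of this association was read from pairs of neighbouring CpGs in bins of 5 to 19 CpGs, each with 1 observation. Between replicates phi was 0.14 at the same CpG, 0.16 at 2 to 10 bp, 0.12 between 100 and 300 bp, 0.06 between 300 and 1000 bp and 0.01 over 3 kb and up to 10 kb. Within a library, where both CpGs can lie on 1 read, phi was 0.59 in replicate 1 and 0.51 in replicate 2 at 2 to 10 bp. It was 0.13 and 0.11 between 100 and 300 bp, near the value between replicates.

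Bins with at least 5 CpGs listed in each replicate numbered 20724 and were denser than most, with 25.2 CpGs on average. Of these, 3014 (14.5%) were below 20% in both replicates, 3464 (16.7%) were between 20% and 80% in both and 6578 (31.7%) were above 80% in both. The low bins held 49.0 CpGs on average, and 75.2% of them had a CpG within 1 kb of a protein-coding TSS, against 4.97% of the high bins. The median level in the REST knockout library was 7.78% in the low bins, 47.9% in the intermediate bins and 75.7% in the high bins. Bin levels of the replicates had a Pearson r of 0.79 across these bins, which share libraries and base composition.

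Levels also varied over larger distances. Of 2417 tiles of 1 Mb, 2381 had 200 or more observations in each replicate. Their median level was 84.5% in replicate 1 and 81.9% in replicate 2, with an SD of 4.66 and 4.02 percentage points over tiles. Counting error alone would give 1.18 and 0.755 if all observations were independent. Observations of a CpG in a replicate were not independent, so these 2 values are too low. Across tiles the replicates had a Pearson r of 0.80, and r with the REST knockout library was 0.65 and 0.74. The tiles share libraries, and their level also went with CpGs per kb (r = -0.38 and -0.37).

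The tiles with the lowest and highest level, ranked by the mean of the replicates, were picked after their values were seen. The lowest, chr5:28000001-29000000, stood at 56.8% and 62.1% and holds Shh and En2, a signalling protein and a homeobox factor of the embryo. Next was chr13:23000001-24000000 with 59.1% and 59.8%, which holds a large cluster of Hist1 histone genes. The third, chr15:102000001-103000000, stood at 65.9% and 60.4% and holds the Hoxc cluster, which patterns the body axis. In the REST knockout library these 3 tiles stood at 48.2%, 53.6% and 51.5%, where the median over tiles was 67.4%. The highest tile, chr13:71000001-72000000, stood at 92.0% and 88.4% and holds 1 annotated protein-coding gene.

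**Figure D4:**
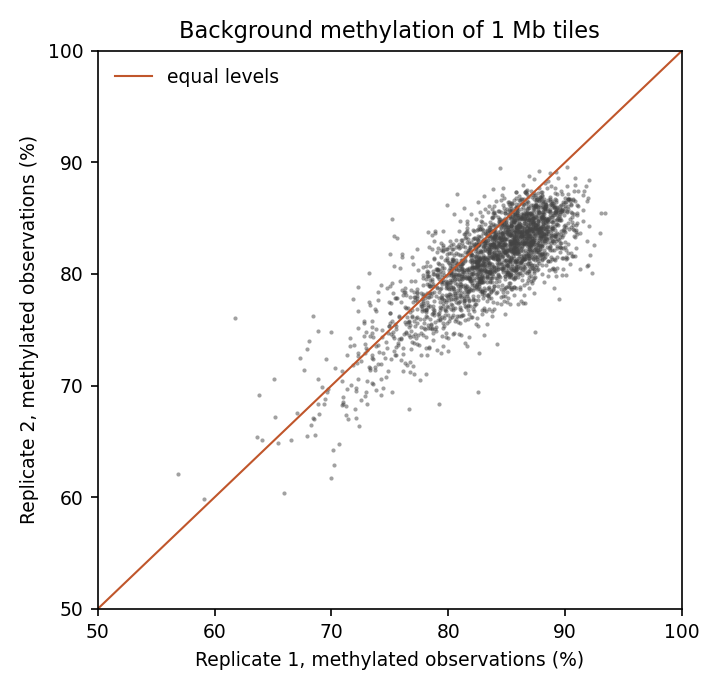
Percent of methylated background observations in 1 Mb tiles, replicate 1 on the x axis and replicate 2 on the y axis, with 1 point for each of the 2381 tiles and a line where the levels are equal. Most tiles lie below the line, with medians of 84.5% and 81.9%, and a tail of tiles is low in both replicates.

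Promoters covered the whole range. Of 21418 protein-coding genes, 9612 had 10 or more background observations within 1 kb of the TSS, both replicates pooled, with a median level of 40%. The median was 90% for promoters with fewer than 20 CpGs within 1 kb, 76.9% with 20 to 59 and 10.8% with 60 or more. The rule for bins took its toll mainly on the last class, of which 31.7% had no CpG in a background bin, against 15.7% and 12.2% of the others. The demand for 10 observations took most from the first class. It was met by 24.4% of promoters with fewer than 20 CpGs, 62.7% with 20 to 59 and 43.5% with 60 or more, so the median over all classes depends on this mix. The replicates were compared at 3705 promoters with 10 or more observations in each (two-sided Fisher's exact test of the counts summed over a promoter, Benjamini-Hochberg adjustment), which compares 2 libraries of 1 group. At 250 of them (6.75%) the adjusted p was under 0.05, with 105 higher in replicate 2 and 145 higher in replicate 1. At an unadjusted p under 0.05 there were 749. When each listed CpG was counted once, only 1647 promoters could be tested and 2 passed, with 69 at an unadjusted p under 0.05. Of the genes in the lists below, 28 were tested by Fisher's exact test and 0 passed, with 6 at an unadjusted p under 0.05.

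Housekeeping promoters were unmethylated where the background reached them. Of 20 such genes, 7 had 10 or more pooled observations and 5 had no background CpG. Polr2a was methylated in 0 of 37 observations in replicate 1 and 3 of 78 in replicate 2, and Tbp, the TATA-binding protein, in 0 of 27 and 2 of 64. Eef1a1, Rplp0 and Tubb5 had no methylated observation among 34, 11 and 35 pooled. This would allow up to 8.82%, 27.3% and 8.57% if observations were independent. The exception was B2m, the light chain of MHC class I, with 4 of 4 and 8 of 9 methylated, and 7 of the 63 CpGs around its start lay in background bins.

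Of 23 matched pluripotency genes, 12 had 10 or more pooled observations, with a median of 6.76%. Sox2, a core transcription factor of ES cells, was methylated in 2 of 74 and 5 of 199 observations. Klf4 was methylated in 0 of 67 and 6 of 190, and Klf5, a related zinc finger factor, in 8 of 56 and 1 of 72. Dppa5a and Dnmt3b, the latter a de novo DNA methyltransferase, had 0 methylated of 43 and of 14 pooled. This would allow up to 6.98% and 21.4% if observations were independent. Of the 131 CpGs around the start of Dnmt3b, 6 lay in background bins. Esrrb, an orphan nuclear receptor of ES cells, was the highest with 5 of 5 and 33 of 34.

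The labelled cell type was checked by 10 ES cell markers in this list. Methylation reads gene activity only indirectly, and the annotated 5′ end need not be the start used in ES cells. Pou5f1 and Tdgf1 had no CpG in a background bin. Sox2, Zfp42 (4 of 22 and 1 of 55), Dppa5a and Dppa4 (0 of 8 in replicate 1 and no observation in replicate 2) were low, while Esrrb and Utf1 (3 of 3 and 6 of 7) were high. Fgf4 had 0 of 1 and 4 of 7. At Nanog the replicates disagreed, with 6 of 6 methylated in replicate 1 and 1 of 12 in replicate 2. Of the 34 CpGs around its start 8 lay in background bins, and the observations were too few for the promoter test. The REST knockout library had 29 of 33 there.

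Promoters of developmental transcription factors ranged from unmethylated to methylated. Of 22 genes, 15 had 10 or more pooled observations, with a median of 20.5%, and 6 had no background CpG. Of the 15, 7 were under 20%, 7 between 20% and 80% and 1 above 80%. Nkx2-5, a heart factor, had 12 of 56 and 11 of 56 methylated, and Pax6, an eye and brain factor, 4 of 21 and 12 of 67. Lhx2, a LIM homeobox factor of the forebrain, had 0 of 34 and 0 of 46. Pooled, this would allow up to 3.75% if observations were independent. Pax3 and Foxa2 also had no methylated observation, among 33 and 10. Gata4, a factor of heart and endoderm, had 8 of 8 and 25 of 26, and it has 27 CpGs within 1 kb where the median of the list is 87.

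Germline promoters were mostly methylated. Of 22 genes, with a median of 63 CpGs within 1 kb, 19 had 10 or more pooled observations, and their median was 76.1%. Over all promoters the median was 76.9% for those with 20 to 59 CpGs and 10.8% for those with 60 or more, and members of the list fall in both classes. Summed over the list, the level was 77.8% over 239 observations of replicate 1 and 62.3% over 695 of replicate 2, and the REST knockout library stood at 49.9%. Mael had 27 of 43 and 40 of 85, and Piwil1, another piRNA pathway gene, 23 of 23 and 58 of 78. The lowest was Ddx4, an RNA helicase of germ cells, with 5 of 13 and 17 of 85, and Dpep3 and Mov10l1 were methylated in all of their 28 and 12 pooled observations.

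Tissue-restricted promoters were the most methylated list by their sum, at 87.7% of 73 observations and 84.3% of 210, with a median of 26 CpGs within 1 kb. Of 30 genes, 13 had 10 or more pooled observations and their median was 85.7%. Cd4 had 5 of 5 and 19 of 23 observations methylated, and Krt1, a keratin of the epidermis, 10 of 10 and 12 of 12. Afp, Cela1, Cyp2e1 and Tat were also methylated in every observation, of 21, 19, 12 and 10. The lowest was Cd8a, a T cell coreceptor, with 0 of 3 and 5 of 7.

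Of 15 matched genes in a list of imprinted genes, 7 had 10 or more pooled observations. The list was meant for promoters methylated on the maternal copy, which need not hold for every member. The counts do not show which parental copy was methylated. Inpp5f had 5 of 70 and 24 of 115 methylated, Nap1l5 had 23 of 29 and 42 of 60, and Grb10 had 5 of 5 and 14 of 33. Mest and Plagl1 were methylated in all of 11 and 13 observations, and 13 of the 105 CpGs around the start of Plagl1 lay in background bins. The annotated 5′ ends of several of these genes need not be the imprinted promoter, and the one used for Mest has 18 CpGs within 1 kb. In the REST knockout library Nap1l5 stood at 19.9% where the wild type replicates had 79.3% and 70.0%. Of the other genes named here, Inpp5f (13.9%) and Grb10 (45.97%) lay between the wild type replicates in that library. Mest (83.7%) and Plagl1 (84.6%) lay below them. Genotype, strain and assay differ together in this comparison, and no difference from the REST knockout library was tested at single genes.

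**Figure D5:**
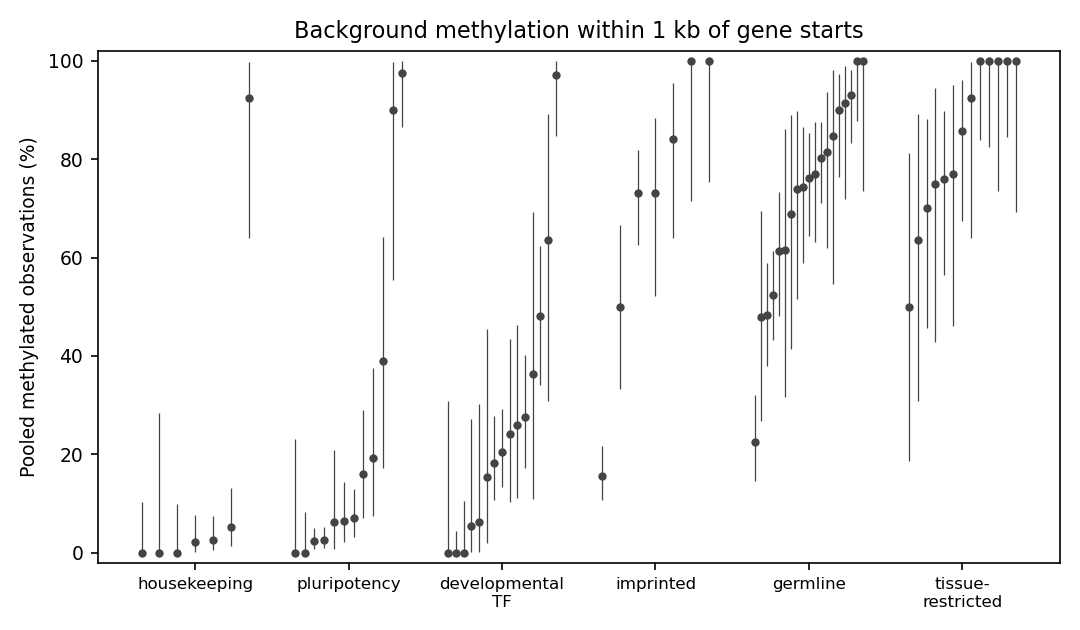
Pooled percent of methylated background observations within 1 kb of the TSS (y axis) for the genes of 6 lists with 10 or more observations (x axis, sorted within a list), with 95% Clopper-Pearson intervals for counting error. Housekeeping genes other than B2m lie below 20%, and germline genes lie between 22.4% and 100%.

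At the CpGs that each replicate shares with the REST knockout library, the wild type background was higher by 20.9 percentage points in replicate 1 (1131680 CpGs) and 15.6 in replicate 2 (3933490 CpGs), or 18.3 ± 3.74 (SD, n = 2). As a mean over CpGs the difference was 11.9 ± 2.29. It was 20.6 and 16.3 in bins of 1 to 4 CpGs, 16.7 and 12.8 in bins of 10 to 19, and 2.10 and 2.11 in bins of 40 or more. As means over CpGs the sign turned in the densest bins, with 12.9% in replicate 1 against 13.1% in the REST knockout library and 17.1% in replicate 2 against 17.6%. The plot by CpG density shows the REST knockout library over all its CpGs in the background bins, not only over the shared ones. The level of the REST knockout library itself went with its coverage. In bins of 5 to 9 CpGs it was 82.1% at CpGs with 1 observation, 73.5% at CpGs with 2 and 68.2% at CpGs with 6 to 10. At those same CpGs replicate 1 stayed at 87.1%, 87.2% and 87.1%, and replicate 2 at 84.3%, 84.2% and 84.3%. The part of this coverage dependence in the difference between the libraries was not tested.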

How the data were processed

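For each library the authors deposited whole-number counts per CpG, the observations and the methylated observations, listing only CpGs with at least 1 observation. Per the labels' processing notes, Bowtie 0.10.0.1 and mm9 were used. Whether PCR duplicates were removed, and whether both strands were combined, is not given in the sources used here. Every listed autosomal position is the plus-strand C of a CpG in NCBIM37 (mm9). A CpG was placed by that genome and by GENCODE vM1, with gene bodies, exons, introns and UTRs taken over 2 kb from any protein-coding TSS. For intergenic CpGs the distance of 10 kb was from the TSS of any transcript, coding or not. Methylation is the sum of methylated observations over the sum of observations, per replicate, given as mean ± SD over 2 replicates.

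Coverage chose the bins, so coverage was given no test. The members, gene lists and comparisons were chosen with earlier results of these data known. Within each list the genes named are the 3 with the most pooled observations within 1 kb of the TSS, those with the highest and lowest level among genes with 10 or more, and any with a difference between replicates, besides the 10 ES cell markers. Some genes and 1 tile that these choices take in are not reported here. Of the lists, Kcnq1ot1, Peg13 and Tfcp2l1 were not matched. A zero count allows up to 3 counts of the total, taking observations as independent. Those of a CpG, and those of neighbouring CpGs in a library, were not, so these limits are too low. Promoters were compared by Fisher's exact test, which was tested on simulated data, with no outcome of that check given here. The test takes observations as independent, which those of a CpG in a replicate were not, so its p-values can be too small. Other limits, bin sizes, windows, coverages and weights were tried, and counting each listed CpG once was added after the data had been seen. X, Y and mitochondrial CpGs were left out of the comparisons. Python 3.11.15, NumPy 2.4.6, pandas 2.3.3, SciPy 1.17.1 and matplotlib 3.10.9 were used.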

Additional observations from a re-analysis of the deposited data

Results flagged for a closer look

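Replicate 1 also lists 189 CpGs of mitochondrial DNA, which no comparison used. Of their 5860 observations, 4.16% were read as methylated (95% Clopper-Pearson interval 3.67% to 4.71%, counting error only), which is above the limit that a count of 0 would allow. Incomplete conversion by bisulfite and methylation cannot be told apart in these counts, and the other libraries list no mitochondrial CpG.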

How the results depend on the processing

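Of 87 alternatives, apart from those that leave out a replicate, 47 stayed within the spread of their result, 38 moved beyond it and 2 turned its sign. All values are percentage points or percent. With a limit of 3 the overall level was 85.0, dense minus poor bins -48.1, TSS minus intergenic -25.3, gene body minus intergenic 0.425, exon minus intron -0.59, the SD over tiles 2.88 and the agreement of single observations 76.2. With a limit of 10 these were 72.2, -76.3, -70.6, -0.43 (turned), -7.50, 8.58 and 78.0, wild type minus REST knockout was 22.7 and replicate 2 minus replicate 1 -0.28. With bins of 500 bp the overall level was 79.4, TSS minus intergenic -61.2, gene body minus intergenic -0.02 (turned, -0.0223), the SD over tiles 5.31 and replicate 2 minus replicate 1 -1.82. With CpGs listed in both replicates the overall level was 77.9, TSS minus intergenic -61.4, exon minus intron -3.86, the SD over tiles 6.97 and replicate 2 minus replicate 1 -4.96. With a listed CpG in each replicate the last 2 were 5.44 and -4.60.

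As a mean over CpGs, wild type minus REST knockout was 11.9 and replicate 2 minus replicate 1 -1.82. With CpGs of 1 observation the SD over tiles was 4.84 and the replicate difference -0.63. Counting CpGs within 250 bp, dense minus poor was -60.3. With 1 kb from the TSS, TSS minus intergenic was -46.3. Tiles of 5 Mb had an SD of 3.09. Over 5 kb from an enriched bin the agreement was 77.0. With each listed CpG counted once, chosen after seeing the data, the replicate difference was -1.07, the agreement 78.0 and the promoters passing 2, and with a window of 500 bp 84 passed. Leaving out each replicate in turn gave 80.6 to 82.9 for the overall level, -73.7 to -65.7 for dense minus poor, -57.3 to -50.7 for TSS minus intergenic, -0.16 to 0.276 for gene body minus intergenic, -3.36 to -1.96 for exon minus intron, 15.6 to 20.9 for wild type minus REST knockout and 4.02 to 4.66 for the SD over tiles. No paired analysis was possible because the wild type and REST knockout groups share only 1 replicate number. Depth limits single promoters, most of which have few observations, and the copies behind them cannot be counted.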
